A study of Homo sapiens with 8 samples.

Results

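The 9 genes described here encode the EGF receptor (EGFR) and its relatives ERBB2 and ERBB3, the EGF-like ligands AREG, EREG, HBEGF and TGFA, the feedback inhibitor ERRFI1, and MET, the receptor of hepatocyte growth factor. They were taken by symbol from a table of 60230 genes, each symbol matched 1 row, and all 9 genes passed the filter on low counts. The table comes from HepG2 cells, a human liver cancer line, that overexpress the drug-metabolizing cytochrome CYP2C19 and were kept under blasticidin selection. Cells were given DMSO, the solvent, or 1 of 3 bisphenolic plastic antioxidants, compound 4 (labelled metylcresol), compound 5 (tetrabut) or compound 6 (cyclohexil), with 2 samples in each of the 4 groups. The exposure was 24 h per the study's methods, and each compound was given at its own IC50, so the concentrations were not equal. The study describes these IC50 values as rather comparable, and measured them in a viability assay with a longer exposure than 24 h. The samples of a group are labelled day 1 and day 2, and are called replicates 1 and 2 here. The labels do not say that they came from separate cultures, so the p-values measure the spread between these samples. All groups carry the CYP2C19 overexpression, and no parental HepG2 cells were analysed here.

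The ERBB receptors are tyrosine kinases that pair up when an EGF-like ligand binds. ERBB2 binds no ligand itself and ERBB3 has little kinase activity, so both signal mainly as partners. AREG, EREG, HBEGF and TGFA are made as membrane proteins, and proteases of the ADAM family cut them free to bind EGFR. EREG and HBEGF can also bind ERBB4. The active receptors feed the RAS–ERK and PI3K pathways, and ERK in turn raises the transcription of several of the ligands and of inhibitors such as ERRFI1, DUSP and Sprouty proteins. In liver, EGFR and MET receive the main growth signals of hepatocytes during regeneration.

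Library totals ran from 9791659 to 17814595 counts. Levels are given in CPM, counts per 1000000 of a library size that was adjusted with edgeR's TMM method. All 10 hepatocyte markers examined were measured, and their summed level was 52100 to 56100 CPM under DMSO and 36500 to 46100 CPM in the treated libraries. Under compound 4, 4 of them (AFP, APOA1, APOB and TF) were called lower, while APOA2 and HNF4A lay above DMSO in both libraries (log2-fold changes 0.27 and 0.09, not called), and under compound 5 FGB was called higher (0.53). The leukocyte markers PTPRC, CD3E and MS4A1, the stellate markers COL1A2, LUM and DCN, and the endothelial markers STAB2 and KDR had no count in any library. The other endothelial markers had few counts per library, with 2 to 7 for PECAM1, 0 to 6 for CDH5 and 1 to 13 for VWF. The sum of the 5 leukocyte markers, all of it from CD68 and CD14, was 20.5 to 25.4 CPM under DMSO, 40.1 to 40.7 under compound 4, 20.7 to 26.8 under compound 5 and 30.5 to 32.1 under compound 6, and the part of these shifts in the results was not tested. The 5 cholangiocyte markers summed to 427 to 476 CPM under DMSO and 432 to 503 CPM in the treated libraries. KRT7 had at most 1 count and CFTR none. KRT19 lay above DMSO under compounds 4, 5 and 6 (log2-fold changes 0.56, 0.43 and 0.63, not called), while SOX9 and EPCAM were lower in value. CYP2C19 was counted in every library, at 16.4 to 52.8 CPM. It was higher under compound 5 by a log2-fold change of 1.05 (adjusted p = 0.040, edgeR). Under compound 4 both libraries also lay above DMSO (0.79, adjusted p = 0.086, edgeR), and under compound 6 the value was 0.04. Mitochondrially encoded genes took 4.69% to 7.77% of the counts. In bulk RNA, fewer cells that express a gene and less of its RNA per cell cannot be told apart.

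EREG and AREG, the ligands that changed most, are neighbours on chromosome 4 in GENCODE 29 (GRCh38). EREG spans 74365143 to 74388751 and AREG 74445134 to 74455009, both on the plus strand, with 56.4 kb between them. Their promoters are shown because the levels of these genes moved together in the libraries. The 250 bases before each RefSeq start (GRCh38.p14, plus strand, chr4:74444886-74445135 for AREG and chr4:74364895-74365144 for EREG) read as follows, 5′ to 3′, with matches to the searched motifs in capitals.
AREG: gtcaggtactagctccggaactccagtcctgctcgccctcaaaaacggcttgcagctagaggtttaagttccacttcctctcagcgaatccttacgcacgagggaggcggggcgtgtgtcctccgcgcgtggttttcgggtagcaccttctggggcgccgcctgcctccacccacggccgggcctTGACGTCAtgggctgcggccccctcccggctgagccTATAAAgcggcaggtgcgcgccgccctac
EREG: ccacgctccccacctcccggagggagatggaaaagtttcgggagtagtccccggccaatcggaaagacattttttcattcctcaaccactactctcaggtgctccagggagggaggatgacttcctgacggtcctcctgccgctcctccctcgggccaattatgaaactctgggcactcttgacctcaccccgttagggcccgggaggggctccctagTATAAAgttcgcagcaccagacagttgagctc

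The motifs searched on both strands were the cAMP response element (TGACGTCA), the AP-1 site (TGANTCA), the TATA box (TATAAA) and the EGR1 site (GCGNGGGCG), and none of the matches in these promoters overlap. The AREG promoter held the cAMP response element, starting 65 bases before the start, a motif present in 1.65% of the 35116 promoters of the same length. A TATA box began 29 bases before the start in AREG and 32 bases before it in EREG, against 10.7% of all promoters with this motif. Neither promoter held the AP-1 motif (6.57% of all promoters) or the EGR1 motif (8.41%). These are matches of letters and say nothing of whether a factor was bound. Of the 9 genes, 8 had 10 promoter entries in the RefSeq table, since EGFR and TGFA had more than 1 start. Among the others, ERBB2 and the second start of EGFR held the AP-1 motif, and that start of EGFR also held the TATA motif.

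EREG, the gene of epiregulin, had 16.8 and 12.3 CPM in replicates 1 and 2 under DMSO. Its levels were 41.7 and 80.1 CPM under compound 4, 103 and 45.6 CPM under compound 5, and 53 and 102 CPM under compound 6. Every treated library thus lay above both DMSO libraries. Relative to DMSO, EREG rose 4.22-fold under compound 4 (log2-fold change 2.08 ± 0.47 SE, adjusted p = 0.026, edgeR's quasi-likelihood F test, adjusted after Benjamini and Hochberg over 13400 genes) and 5.11-fold under compound 5 (2.35 ± 0.47, adjusted p = 0.019, edgeR). Under compound 6 its log2-fold change was 2.42 ± 0.47, with an adjusted p of 0.054 (edgeR) that did not pass the threshold of 0.05. That value was 0.0068 in a fit of only the 4 libraries compared and 0.0059 with DESeq2, but 0.065 with the replicate block and 0.058 with DESeq2's size factors in edgeR. With 1 library left out it was 0.047 without compound 6 replicate 1 (edgeR, log2-fold change 2.81), 0.17 without DMSO replicate 1 (2.64), 0.44 without DMSO replicate 2 (2.21) and 0.38 without compound 6 replicate 2 (1.87). The calls under compounds 4 and 5 were lost without DMSO replicate 1 (2.30 and 2.57), without DMSO replicate 2 (1.86 and 2.14), and without the higher treated library, which left 1.52 without compound 4 replicate 2 and 1.64 without compound 5 replicate 1.

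AREG, the gene of amphiregulin, had the lowest level under DMSO among the genes that passed the threshold, at 2.15 and 1.34 CPM, from 21 and 16 counts. It reached 5.07 and 18.2 CPM under compound 4, 22.3 and 10.2 CPM under compound 5, and 6.87 and 21.0 CPM under compound 6. As for EREG, no treated library overlapped with DMSO. Its log2-fold changes exceeded those of EREG in value, at 2.78 ± 0.78 (SE) under compound 4, 3.22 ± 0.77 under compound 5 and 3.02 ± 0.78 under compound 6, but so did their errors. AREG passed the threshold under compound 5, where it rose 9.30-fold (adjusted p = 0.036, edgeR). Under compounds 4 and 6 the adjusted p was 0.055 and 0.10 (edgeR), and it was 0.036 and 0.037 with DESeq2 and 0.018 and 0.016 in fits of only the 4 libraries compared. It was 0.067 and 0.11 with the replicate block (edgeR), and 0.056 and 0.10 with DESeq2's size factors in edgeR. The log2-fold changes were 3.12 and 3.36 without DMSO replicate 1, and 2.45 and 2.69 without DMSO replicate 2. Without compound 4 replicate 1 the value for compound 4 was 3.39, with an adjusted p of 0.031 (edgeR), and without compound 4 replicate 2 it was 1.56 (adjusted p = 0.36, edgeR). Under compound 6 the value was 3.59 without replicate 1 of that compound (adjusted p = 0.070, edgeR) and 1.99 without its replicate 2 (adjusted p = 0.53, edgeR). The call under compound 5 was lost without DMSO replicate 1 (3.56), DMSO replicate 2 (2.89) or compound 5 replicate 1 (2.55).

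TGFA, the gene of transforming growth factor alpha (chromosome 2, 70447280 to 70554193, minus strand), had 17.6 and 19.0 CPM under DMSO, 29.8 and 28.6 CPM under compound 4, 21.7 and 18.0 CPM under compound 5, and 27.3 and 24.3 CPM under compound 6. The libraries of compounds 4 and 6 lay above DMSO, while those of compound 5 overlapped with it. TGFA rose 1.59-fold under compound 4 (log2-fold change 0.67 ± 0.14 SE, adjusted p = 0.020, edgeR). The change was 0.11 under compound 5 (95% interval −0.21 to 0.42) and 0.49 under compound 6 (adjusted p = 0.12, edgeR). Its replicates were closer to each other than those of EREG and AREG, and with any of the 4 libraries left out the log2-fold change under compound 4 stayed between 0.61 and 0.73, although the adjusted p then lay between 0.067 and 0.14 (edgeR).

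HBEGF, the gene of heparin-binding EGF-like growth factor (chromosome 5, 140332843 to 140346631, minus strand), was scarce, with between 10 and 48 counts per library. It had 1.23 and 0.837 CPM under DMSO, 1.13 and 2.05 CPM under compound 4, 3.95 and 1.88 CPM under compound 5, and 0.981 and 2.27 CPM under compound 6. Only the libraries of compound 5 lay above both DMSO libraries. The log2-fold change under compound 5 was 1.48 (95% interval 0.23 to 2.72), with an adjusted p of 0.12 (edgeR) that was 0.0095 when genes were not filtered on low counts. This change was 0.86 without compound 5 replicate 1 (adjusted p = 0.50, edgeR) and 1.94 without compound 5 replicate 2 (adjusted p = 0.058, edgeR). For compounds 4 and 6 the intervals reached from −0.67 to 1.98 and from −0.67 to 2.01, so changes of either sign lay within them.

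**Figure D1:**
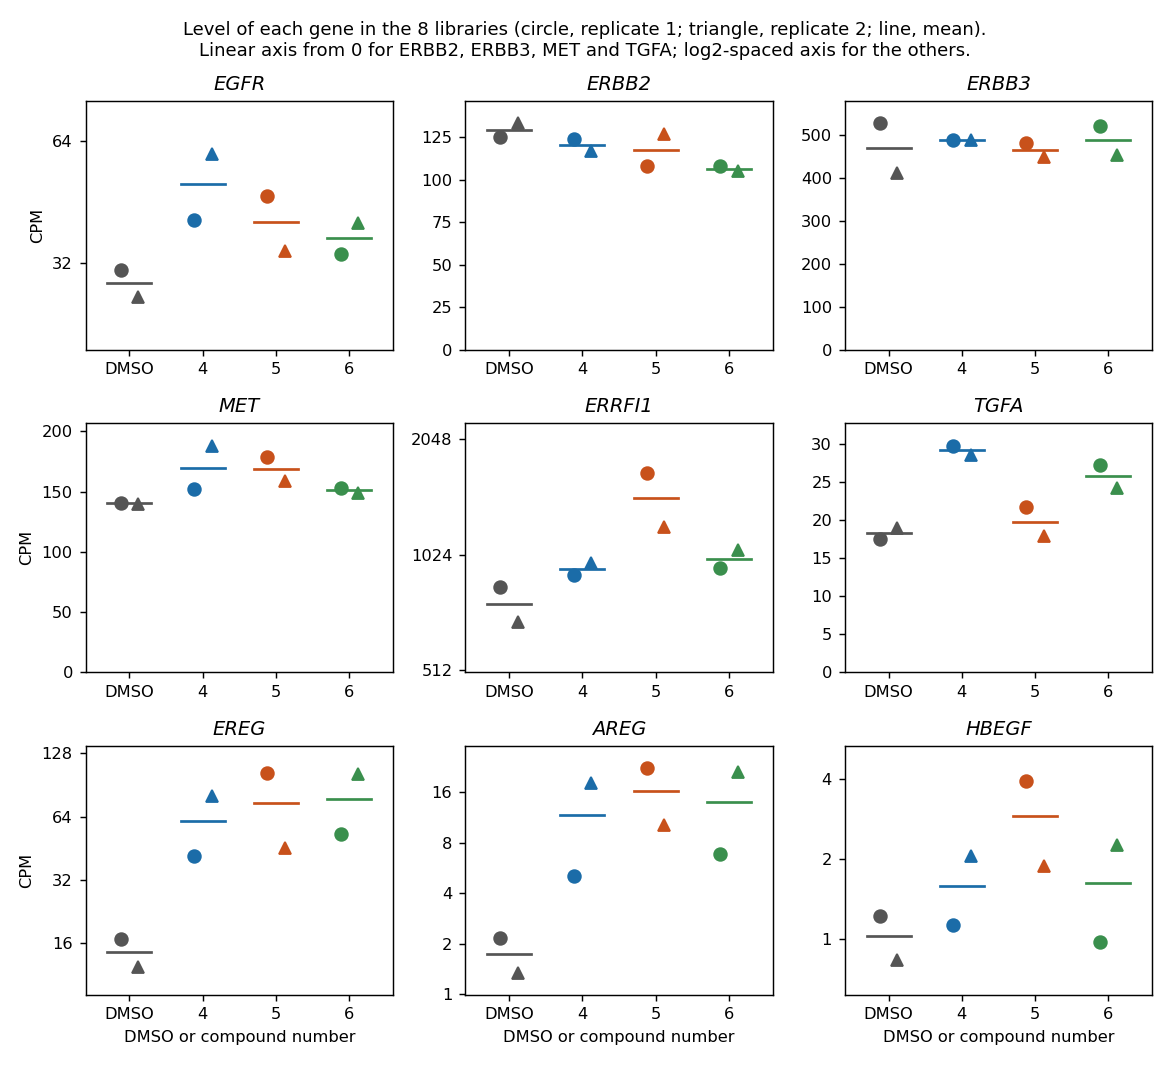
Level of each of the 9 genes in CPM (vertical axis, linear from 0 for ERBB2, ERBB3, MET and TGFA and log2-spaced for the others) in the 2 libraries of DMSO and of compounds 4, 5 and 6, where circles are replicate 1, triangles replicate 2 and lines group means. EREG and AREG lie above both DMSO libraries in all 6 treated libraries, whereas the ERBB3 libraries of the treated groups lie between its DMSO libraries at 412 and 527 CPM.

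EREG, AREG and HBEGF shared the same order of replicates within each compound. The higher library was replicate 2 under compounds 4 and 6 and replicate 1 under compound 5, and under DMSO it was replicate 1, in each of these 3 genes. EGFR and ERRFI1 followed the same order, and ERBB2, ERBB3, TGFA and MET did not. The deeper library was replicate 2 in all groups, with 17814595 against 12863644 counts under compound 5, so this order was not that of the library totals. The part of this variation in the changes against DMSO was not tested.

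The principal transcripts annotated in GENCODE 29 allow the ligands to be compared per length. Under DMSO, TGFA was the leading ligand mRNA, at 4.08 and 4.41 CPM per kb, followed by EREG at 3.64 and 2.66, AREG at 1.73 and 1.08, and HBEGF at 0.516 and 0.351. TGFA thus made up 41.0% and 51.8% of the summed level of the 4 ligands. In the treated libraries EREG led in every case, with 42.8% to 48.4% of the sum, and TGFA held between 10.7% and 33.7%. AREG took 19.9% and 37.1% of the ligand sum under compound 4, 38.3% and 35.7% under compound 5, and 23.3% and 37.1% under compound 6, against 17.4% and 12.7% under DMSO. The sum itself was 9.97 and 8.50 CPM per kb under DMSO, and between 20.5 and 47.0 CPM per kb in the treated libraries. These shares depend on the transcript chosen for each gene, which is 1240 bases long for AREG and 4619 for EREG.

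**Figure D2:**
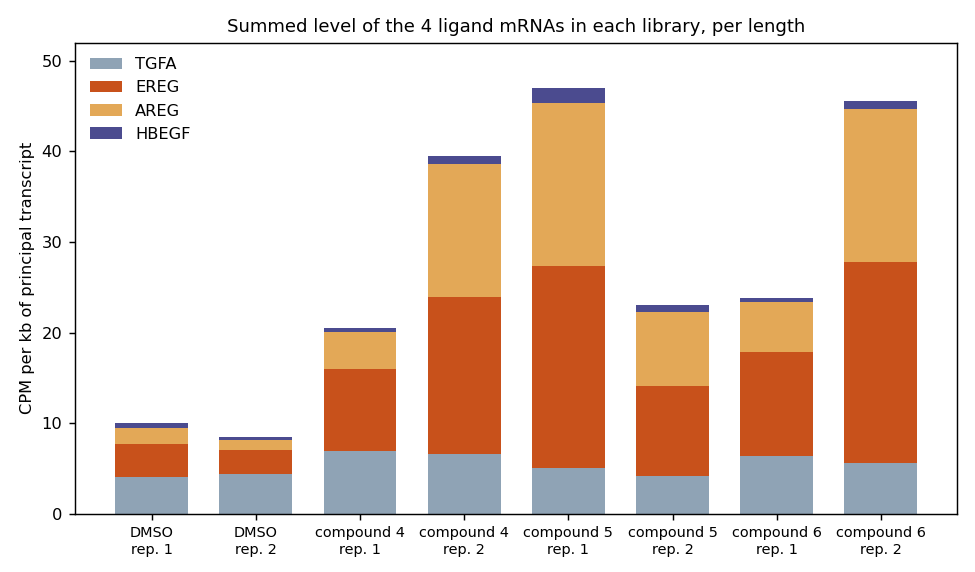
Summed level of the 4 ligand mRNAs in each of the 8 libraries, in CPM per kb of the principal transcript (vertical axis, from 0), stacked by gene. The sum is 9.97 and 8.50 CPM per kb in the DMSO libraries and at least 20.5 in the treated ones, and the EREG and AREG segments account for most of the difference in height.

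Among the receptors, EGFR (chromosome 7, 55019021 to 55211628, plus strand) passed the threshold. It had 30.7 and 26.4 CPM under DMSO, 40.8 and 59.5 CPM under compound 4, 46.7 and 34.2 CPM under compound 5, and 33.7 and 40.2 CPM under compound 6. All treated libraries lay above both DMSO libraries. EGFR rose 1.76-fold under compound 4 (log2-fold change 0.82 ± 0.21 SE, adjusted p = 0.040, edgeR), while the changes of 0.50 under compound 5 and 0.37 under compound 6 had adjusted p values of 0.16 and 0.38 (edgeR). The call under compound 4 was lost without DMSO replicate 1 (0.92), DMSO replicate 2 (0.71) or compound 4 replicate 2 (0.52). An antisense gene, EGFR-AS1, overlaps EGFR exons on the opposite strand with 86 to 237 counts per library, and while the libraries were prepared with a directional kit, the strand setting of the counting is not given in the sources used here.

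ERBB2 (chromosome 17, 39687914 to 39730426, plus strand) had 125 and 133 CPM under DMSO, 124 and 117 CPM under compound 4, 108 and 127 CPM under compound 5, and 108 and 105 CPM under compound 6. Its libraries lay below DMSO under compounds 4 and 6, with the lowest levels under compound 6 (log2-fold change −0.28, 95% interval −0.53 to −0.03), but its adjusted p was 0.23 there (edgeR) and did not pass the threshold. ERBB3 (chromosome 12, 56076799 to 56103505, plus strand) had 527 and 412 CPM under DMSO, and its 6 treated libraries lay between these values, from 448 to 521 CPM. Its log2-fold changes were 0.06, −0.01 and 0.06, and the 95% intervals stayed within −0.30 and 0.35. The counts of ERBB2 and ERBB3 carry an added uncertainty, since exons of ERBB2 overlap MIEN1 and PGAP3 on the opposite strand and those of ERBB3 overlap AC034102.2 on the same strand.

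MET (chromosome 7, 116672390 to 116798386, plus strand) had 141 and 140 CPM under DMSO, 152 and 188 CPM under compound 4, 179 and 159 CPM under compound 5, and 153 and 149 CPM under compound 6. All treated libraries were above DMSO, where the replicates were close. The log2-fold changes were nevertheless small, at 0.28 (95% interval 0.01 to 0.55), 0.27 (−0.01 to 0.54) and 0.11 (−0.17 to 0.38), and none passed the threshold (adjusted p = 0.17, 0.19 and 0.68, edgeR).

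Per length, ERBB3 led the 3 ERBB receptors in every library, with 68.5% to 76.4% of their sum, ERBB2 followed with 20.6% to 28.8%, and EGFR had 2.61% to 5.30%. EGFR held 2.61% and 2.65% under DMSO and at least 2.98% in the treated libraries. The principal EGFR transcript, of 9821 bases, is the longest of the 9 genes, so its value per length would be higher if shorter transcripts prevailed.

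ERRFI1, the adaptor that binds and inhibits active EGFR and ERBB2 (chromosome 1, 8004404 to 8026308, minus strand), was the most abundant of the 9 genes per length, at 272 and 219 CPM per kb under DMSO. In CPM it had 843 and 681 under DMSO, 907 and 971 under compound 4, 1670 and 1210 under compound 5, and 943 and 1050 under compound 6. All treated libraries were above DMSO, with those of compound 5 highest. ERRFI1 rose 1.89-fold under compound 5 (log2-fold change 0.92 ± 0.16 SE, adjusted p = 0.012, edgeR), and the changes of 0.30 under compound 4 and 0.38 under compound 6 did not pass the threshold (adjusted p = 0.25 and 0.24, edgeR). Leaving out DMSO replicate 1 (1.07), DMSO replicate 2 (0.77) or compound 5 replicate 1 (0.66) ended the call under compound 5.

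**Figure D3:**
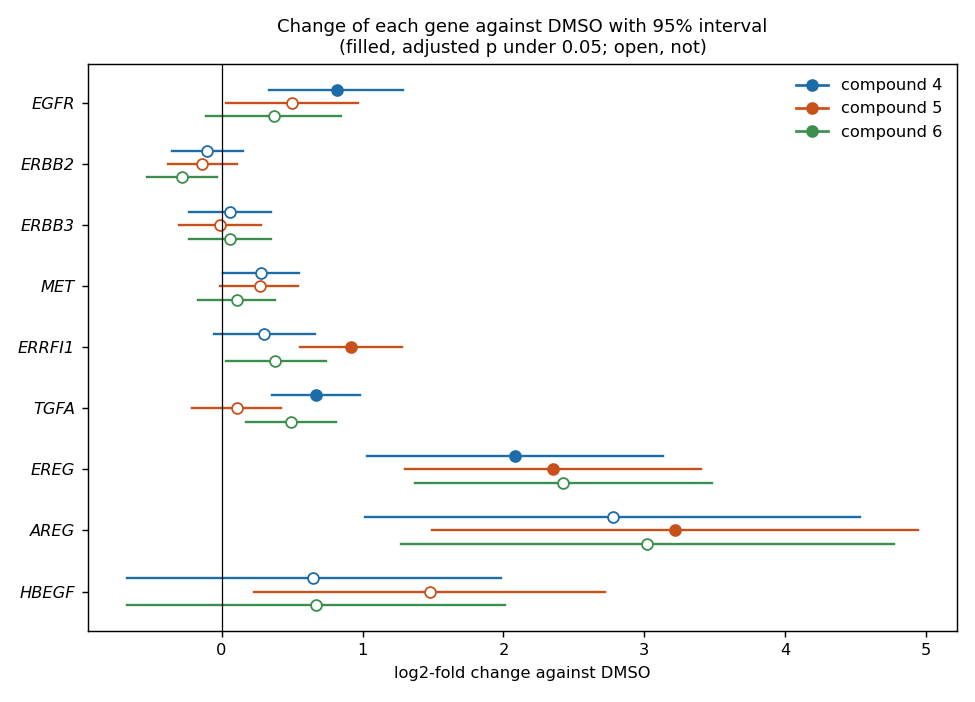
Log2-fold change of each gene against DMSO (horizontal axis) under compounds 4, 5 and 6, with 95% intervals as lines, filled points for an adjusted p under 0.05 and open points for the rest. The intervals of EREG and AREG lie above 0 under all 3 compounds, those of ERBB3 span 0, and those of HBEGF are wide.

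Under compound 4, 3 of the 9 genes (EGFR, EREG and TGFA) were called, all higher, where 9.51% of the 13400 tested genes were called and 5.6% were called higher. Under compound 5 it was also 3 genes (AREG, EREG and ERRFI1), all higher, against 8.3% and 5.35% of all genes. Under compound 6, 0 of the 9 genes were called by edgeR, against 0.575% of all genes (0.493% higher). DESeq2 called 2 of the 9 genes there, AREG and EREG, and 547 over all genes. At an unadjusted p under 0.05, 5 of the 9 genes were found in each comparison, against 27.5%, 28.4% and 18.6% of all genes under compounds 4, 5 and 6. Both treated libraries lay above both DMSO libraries for 6 genes in each comparison, against 30.4%, 31% and 29.3% of all genes. ERBB2 was the 1 gene with both libraries below DMSO, under compound 4 (28% of all genes) and compound 6 (26%). The median log2-fold change of the 9 genes was 0.65, 0.50 and 0.38 under compounds 4, 5 and 6, beside 0.01, 0.00 and 0.02 over all tested genes. The counts of 3 under compounds 4 and 5 became 0 without DMSO replicate 1, DMSO replicate 2, compound 4 replicate 2 or compound 5 replicate 1, and were 3 without the other library of each compound. Without compound 4 replicate 1 these 3 were AREG, EREG and EGFR, and TGFA was not called. The 3 comparisons share the DMSO libraries, so they are not independent of each other. The 9 genes were chosen with earlier results of these data known, so these counts do not test them as a set.

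The compounds differ by named groups on a shared bisphenol frame. Compound 6 carries cyclohexyl groups where compound 4 carries tert-butyl groups, and compound 5 has tert-butyl groups in place of the methyl groups of compound 4 and a different bridge between the rings. Their concentrations were not equal, although the study describes them as rather comparable, and the part of dose in their differences was not tested. Between compounds 4 and 6, 0 of the 9 genes were called by edgeR or DESeq2, and 0 of the 9 had an unadjusted p under 0.05. Over all genes, edgeR called 0 (0%) and DESeq2 59, and 7.05% had an unadjusted p under 0.05. Compound 4 had both libraries above those of compound 6 for EGFR, ERBB2 and TGFA (19% of all genes) and below them for none of the 9 (19.6%). The 95% interval of the difference between compounds 4 and 6 was −1.30 to 0.60 for EREG, −1.61 to 1.13 for AREG, −0.13 to 0.49 for TGFA and −0.44 to 0.27 for ERRFI1, and the lowest unadjusted p was that of EGFR, 0.060 (edgeR). For the ligands EREG and AREG, these intervals leave room for differences of more than 1 on the log2 scale.

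Between compounds 4 and 5 the test called 0 of the 9 genes, and 0.313% of all genes (42 genes, or 128 when replicates were blocked). At an unadjusted p under 0.05 it found 2 of the 9 genes, TGFA and ERRFI1, against 16.2% of all genes. ERRFI1 was at a lower level under compound 4 than under compound 5, with a log2 difference of −0.62 (95% interval −0.97 to −0.26), with an adjusted p of 0.13 (edgeR) that was 0.013 with DESeq2. TGFA was at a higher level under compound 4, by 0.56 (0.26 to 0.87, adjusted p = 0.12, edgeR), and this was called only when genes were not filtered (adjusted p = 0.040, edgeR). The libraries of compound 4 lay above those of compound 5 for TGFA and ERBB3 (22.7% of all genes) and below them for ERRFI1 (21.8%). The differences in EREG, of −0.28 (−1.22 to 0.67), and in AREG, of −0.44 (−1.79 to 0.91), were within their errors. Between compounds 5 and 6, again 0 of the 9 genes passed the threshold (1.03% of all genes, 138 genes, or 269 with the block), and 2, TGFA and ERRFI1, had an unadjusted p under 0.05 (18.5% of all genes). Compound 5 lay above compound 6 without overlap for ERRFI1 and MET (24.3% of all genes) and below it for TGFA (25.1%). The ERRFI1 difference was 0.54 (0.18 to 0.89, adjusted p = 0.13, edgeR, and 0.029 with DESeq2), and that of TGFA −0.38 (−0.69 to −0.07, adjusted p = 0.19, edgeR). EREG differed by −0.07 (−1.01 to 0.87) and AREG by 0.20 (−1.15 to 1.55) between compounds 5 and 6. In order of mean level (± SD, n = 2), EREG ran from DMSO (14.6 ± 3.18 CPM) through compound 4 (60.9 ± 27.2) and compound 5 (74.4 ± 40.7) to compound 6 (77.7 ± 35). The order of AREG was DMSO (1.75 ± 0.574 CPM), compound 4 (11.7 ± 9.32), compound 6 (14 ± 10) and compound 5 (16.2 ± 8.57). That of TGFA was DMSO (18.3 ± 0.977 CPM), compound 5 (19.8 ± 2.59), compound 6 (25.8 ± 2.14) and compound 4 (29.2 ± 0.881). None of the neighbours among the compounds in these orders differed past the threshold.

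The other members of the family were absent or nearly so. ERBB4, BTC, EPGN, NRG1, NRG2, NRG3 and HGF had no count in any library, where a count of 0 allows up to 0.168 to 0.306 CPM depending on the library. EGF had at most 6 counts and NRG4 at most 1. The ligand genes measured in these cells were therefore the 4 described above, and the MET ligand HGF was not detectable.

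Genes that release the ligands were examined as a list of 8, of which 7 were tested. ADAM9 rose under compound 4 (log2-fold change 0.73) and compound 5 (0.65), and RHBDF1 and RHBDF2, the inactive rhomboids that carry ADAM17 to the surface, rose under compound 4 (1.28 and 1.6). ADAM17 itself, the main sheddase of AREG, HBEGF and TGFA, was called under compound 5 (0.62, adjusted p = 0.047, edgeR, and 0.051 with the replicate block). Without passing the threshold, RHBDF1 and RHBDF2 changed by 0.93 and 0.56 under compound 5 and by 1.01 and 1.17 under compound 6. ADAM9 likewise changed by 0.63 under compound 6, and ADAM17 by 0.29 and 0.31 under compounds 4 and 6. In all, 3 of the 7 genes were called higher under compound 4, 2 under compound 5 and 0 under compound 6, against 5.6%, 5.35% and 0.493% of all genes, and 0 were lower. The median of the list was 0.29, 0.56 and 0.31, beside medians of all genes of 0.01, 0.00 and 0.02. This list and those that follow were chosen with earlier results of these data known, so their counts do not test them.

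Of 20 genes that attenuate the receptors, 19 were tested, and 2 were higher and 0 lower under compounds 4 and 5, with 0 called under compound 6. With 9.51% and 8.3% of all genes called in either direction under compounds 4 and 5, a count of 2 in 19 is a share near the background. SOCS3, a suppressor of cytokine and receptor signalling, rose under compounds 4 and 5 (2.21 and 1.92). The phosphatase PTPRJ rose under compound 4 (0.74) and HGS, which sorts receptors to lysosomes, under compound 5 (0.56). Without passing the threshold, SOCS3 changed by 2.06 under compound 6 and PTPRJ by 0.48 and 0.66 under compounds 5 and 6. HGS likewise changed by 0.31 and 0.22 under compounds 4 and 6. The list medians were 0.08, 0.37 and 0.25. Among 25 adaptors and kinases of the relay, 4 were higher under compound 4 and 3 under compound 5, with 0 under compound 6 and 0 lower in any comparison, against the same 5.6%, 5.35% and 0.493% of all genes called higher. SHC1 (0.61 and 0.62), the scaffold GAB2 (1.94 and 1.67) and MAP2K2 (0.47 and 0.51) rose under compounds 4 and 5, and ARAF under compound 4 (0.51). Under compound 6 SHC1, GAB2, MAP2K2 and ARAF changed by 0.48, 1.54, 0.17 and 0.31, none called. ARAF changed by 0.41 under compound 5 (not called). The list medians were 0.10, 0.12 and 0.12.

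Of 19 tested ERK-induced genes, 7 were higher under compound 4, 11 under compound 5 and 2 under compound 6, against 5.6%, 5.35% and 0.493% of all genes, with 0 lower in any of these. Under compound 6 the number was 8 with DESeq2, 9 in the fit of only the 4 libraries compared and 11 without a filter on low counts. It was 2 with the replicate block and 1 with DESeq2's size factors in edgeR. Over all genes these alternatives called 547, 956, 1355, 68 and 47 genes, in the same order, against 77 in the main test. The phosphatase DUSP6 (0.68, 0.71 and 0.64) and the Sprouty protein SPRY4 (1.08, 1.31 and 1.15) rose under all 3 compounds. DUSP5, another ERK phosphatase, rose from a mean of 0.466 CPM under DMSO to 20.3 CPM under compound 4 and 29.8 CPM under compound 5, and had 21.3 CPM under compound 6 (adjusted p = 0.079, edgeR). DUSP4 (2.48 and 2.12), the AP-1 subunit FOSL1 (1.11 and 1.53), IER3 (1.2 and 1.87) and the receptor EPHA2 (1.29 and 1.92) rose under compounds 4 and 5, and EGR1 (2.64) under compound 5. Without passing the threshold, DUSP4, FOSL1, IER3 and EPHA2 changed by 1.61, 1.04, 0.96 and 1.02 under compound 6. EGR1 likewise changed by 1.32 under compound 4 and 2.02 under compound 6. This list was also chosen with earlier results of these data known, so its counts do not test it. The list medians were 0.36, 0.66 and 0.64. Leaving out DMSO replicate 1 left 3 of them called under compound 4 and 2 under compound 5, and leaving out DMSO replicate 2 left 0 and 1. It was 2 for compound 4 when its replicate 2 was omitted and 3 for compound 5 when its replicate 1 was, and the number under compound 6 was 0 without either DMSO replicate or without compound 6 replicate 2.

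Of 12 genes for the activation of HGF and for partners of MET, 10 were tested. The numbers called were 0, 1 and 0 under compounds 4, 5 and 6, against 9.51%, 8.3% and 0.575% of all genes. The 1 under compound 5 was MST1 (0.46), so the share there was near that of all genes. MST1 was not called in the fit of only the 4 libraries compared. The list medians were 0.4, −0.15 and 0.26. With the replicate block, HPN and SPINT1, a protease and an inhibitor of HGF activation, also passed under compound 4 (adjusted p = 0.014 and 0.011, edgeR). Among 20 other receptor tyrosine kinases, 14 were tested. AXL (2.55) and PDGFRB (1.79) rose and EPHA1 (−1) and ROR1 (−1.29) fell under compound 4, where 9.51% of all genes were called. For compounds 5 and 6 the number called was 0, against 8.3% and 0.575% of all genes. The list medians were 0.06, 0.22 and 0.01. Under compounds 5 and 6, AXL changed by 1.34 and 2.39 and PDGFRB by 0.43 and 1.05. The values there were 0.19 and −0.37 for EPHA1 and −0.48 and −0.54 for ROR1. PDGFRB also marks stellate cells. Of the 7 stellate cell markers, 5 had at most 1 count in any library, and their sum, nearly all from PDGFRB and ACTA2, was 17.7 to 23.4 CPM under DMSO, 34.2 to 34.3 CPM under compound 4, 15 to 17.3 CPM under compound 5 and 22.5 to 26.9 CPM under compound 6. ACTA2 had a mean of 13.4 CPM under DMSO and 9.94 CPM under compound 4 (not called), and it was called lower under compound 5 (−1, adjusted p = 0.032, edgeR).

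The counts of 0 in these lists came with genes at an unadjusted p under 0.05. Under compound 6 these were 3 release genes, 4 attenuating genes, 6 relay genes, 2 HGF and MET genes and 2 other kinases. This was out of 7, 19, 25, 10 and 14 tested, where 18.6% of all genes reached such a p. DESeq2 called 2, 2, 1, 0 and 2 genes of these lists there, and 547 over all genes. There were 4 of 10 HGF and MET genes under compound 4 (1 called by DESeq2), against 27.5% of all genes, and 4 of 14 other kinases under compound 5 (1 called by DESeq2), a share near the 28.4% of all genes. Of these genes, PIK3R1 (−0.39) and PIK3R2 (−0.32) were lower under compound 6, MST1R (−1.34) under compound 4 and FGFR4 (−0.42) under compound 5. The others were higher. The calls in the lists other than the ERK-induced genes also rested on single libraries. Without DMSO replicate 2 or compound 4 replicate 2, 0 genes of these lists were called under compound 4, and the counts without DMSO replicate 1 were 2 for release, 1 for attenuation, 0 for the relay and 2 for the other kinases. Under compound 5 the number was 0 in each of these lists without DMSO replicate 1, DMSO replicate 2 or compound 5 replicate 1, whereas omitting the other library of compound 5 gave 3, 6, 4, 0 and 1.

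The genes whose levels followed the called members most closely over the 8 libraries were found by the root mean square difference between profiles in log2 CPM, each centred on its own mean, among 13391 genes. For EREG they were TM4SF19 (0.09), FUT1 and LUCAT1 (0.24 each), where EREG itself varied by 1.06 about its mean. TM4SF19 changed by 2.01, 2.28 and 2.3 on the log2 scale with compounds 4, 5 and 6, beside 2.08, 2.35 and 2.42 for EREG. For AREG, which varied by 1.38, they were RASD1 (0.34), KRT15 (0.38) and FUT1 (0.39). ERRFI1, which varied by 0.36, was followed by SIK1 (0.08), NFIL3 (0.10) and CDR2 (0.11), each of which was called under compound 5. The genes nearest to TGFA (varying by 0.29) were KLHL5 (0.05), SLC8B1 (0.08) and DPY19L1P1 (0.09), and those nearest to EGFR (0.34) were HDAC7 and ZBTB42 (0.10 each) and RBMS2 (0.11). A small difference over 8 libraries describes likeness of level only.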

How the data were processed

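RNA was sequenced from 8 samples of CYP2C19-overexpressing HepG2 cells in 4 groups of 2. The authors estimated transcript abundance with Salmon 1.5.0 (GRCh38, GENCODE annotation), used tximeta to sum it by gene, and deposited the estimated counts, whole numbers without normalization. The labels mark DMSO replicate 1 and compound 4 replicate 1 as merged, without saying what was merged. Offsets for transcript length were not used here.

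The test was edgeR 4.0.16 in R 4.3.3 (TMM, filterByExpr at a minimum count of 10, 13400 genes, a quasi-likelihood F test from a single fit of the 8 libraries, Benjamini-Hochberg adjustment, threshold 0.05). SEs and 95% intervals were derived from the F statistics. The script was tested on simulated data. Replicates differed by more than counting noise (mean chi-square per gene 8.23 to 19.2, where counting noise alone gives 1). A permutation of 2 against 2 samples cannot give a two-sided p below 0.33, so none was run. The pairing of replicates comes from the day in the labels. The difference between replicates 2 and 1 correlated with r between −0.15 and 0.24 over the 6 pairs of groups, across genes, which are not independent.

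Alternatives were DESeq2 1.42.0, its size factors in edgeR, no filter, a replicate block, only the 4 libraries compared, and leaving out each library. The 9 genes and the lists were chosen with earlier results of these data known. All 9 genes were described, and of each list the called genes and its highest and lowest members could be named. Outside this rule, HPN and SPINT1 were named for calls with the replicate block. PIK3R2 and FGFR4 were named for lower values at an unadjusted p under 0.05 (edgeR). Alternatives for the list counts were added after seeing the data. The nearest profiles used a prior count of 2. Gene positions and transcript lengths are from GENCODE 29, and promoters from RefSeq (GRCh38.p14). Figures were made with Python 3.11.15 and matplotlib 3.10.9.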

Additional observations from a re-analysis of the deposited data

How the results depend on the processing

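With 1 library left out, the number of the 9 genes called became 0 to 3 under compound 4, 0 to 3 under compound 5 and 0 to 1 under compound 6, from 3, 3 and 0. Over all genes it became 43 to 932 under compound 4, 46 to 1829 under compound 5 and 2 to 70 under compound 6, from 1275, 1112 and 77, and 9 to 25 between compounds 4 and 5, 0 to 2 between compounds 4 and 6 and 0 to 103 between compounds 5 and 6, from 42, 0 and 138. Leaving out a library leaves 1 sample in a group, which is then assumed to vary like the others.

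Without a filter on low counts the numbers over all genes were 2383, 2431 and 1355 under compounds 4, 5 and 6 and 750, 259 and 990 between compounds 4 and 5, 4 and 6, and 5 and 6. Of the 9 genes, 5 were then called under compound 5, 3 under compound 6, 2 between compounds 4 and 5 and 1 between compounds 5 and 6. DESeq2 called 547 genes under compound 6 and 210, 59 and 379 between the compounds, and of the 9 genes 2 under compound 6 and 1 each between compounds 4 and 5 and compounds 5 and 6. In fits of only the 4 libraries compared, 956 genes, 2 of the 9 among them, were called under compound 6, 10 between compounds 4 and 5 and 50 between compounds 5 and 6. With DESeq2's size factors 47 genes were called under compound 6. The cause of these shifts was not tested. With the replicate number as block, 128, 1 and 269 genes were called between the compounds, and the pairing changed no call among the 9 genes.

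Directions turned only when single libraries were left out, in 29 values, none of them called. The log2 values then ranged, under compound 4, from −0.11 to 0.24 for ERBB3, under compound 5 from −0.18 to 0.16 for ERBB3 and from −0.04 to 0.24 for TGFA, and under compound 6 from −0.11 to 0.23 for ERBB3 and from −0.06 to 1.13 for HBEGF. Between compounds 4 and 5 they ranged from −0.07 to 0.16 for ERBB2, −1.66 to 0.22 for AREG, −0.83 to 0.43 for EREG and −0.15 to 0.16 for MET. Between compounds 4 and 6 they ranged from −0.09 to 0.11 for ERBB3, −1.46 to 0.78 for AREG, −0.9 to 0.21 for EREG and −0.53 to 0.71 for HBEGF, and between compounds 5 and 6 from −0.11 to 0.34 for EGFR, −0.46 to 1.23 for AREG, −0.77 to 0.48 for EREG and −0.17 to 0.03 for ERBB3. The lowest counts behind these values were those of HBEGF, with 10 to 48 per library, and of AREG under DMSO, with 16 and 21, and the part of depth in their errors was not tested.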
